A study of Mus musculus with 8 samples.

Results

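A set of 10 heat shock protein genes was followed across 8 mouse brain libraries: Hspa1a, Hspa1b, Hspa8, Hspa4l, Hsph1, Hspb1, Hsp90aa1, Hsp90ab1, Hspd1 and Hspe1. They were chosen by gene symbol from the Hsp70, Hsp110, small heat shock protein, Hsp90 and mitochondrial chaperonin families, and make up 10 of the 55780 genes in the table. Earlier results of these data were known when they were chosen. Counts among them beside shares of all genes are therefore descriptions. All mice were of the C57BL/6 strain. The 4 libraries named Ep1 were labelled as treated with PDT, Ep1 1 and Ep1 2 at 10 J/cm2 and Ep1 3 and Ep1 4 at 20 J/cm2, and the 4 libraries named Ctrl were untreated. The title names MNP and the design text names magnetic force, and the labels do not settle what the treatment was. The source is given as brain tissue and the cell type as brain microvessel endothelial cells. No age, sex or time after treatment was labelled, and nothing says that the libraries came from separate animals, so the p-values below measure the spread between these libraries, which may be technical.

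Heat shock proteins are molecular chaperones that bind unfolded or newly made proteins and help them to fold, to be transported or to be degraded. In mammals the transcription factor HSF1 is released from chaperone complexes when unfolded proteins accumulate, and then binds heat shock elements, inverted repeats of the bases GAA and TTC, upstream of its target genes. Some members are abundant in unstressed neurons and glia, such as Hspa8 and the Hsp90 genes, while the inducible Hsp70 genes Hspa1a and Hspa1b and the small heat shock protein gene Hspb1 are known as genes with low levels in unstressed brain.

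The libraries held 15038147 to 17772972 fragments. Summed over 7 endothelial cell markers the levels were 83.6 to 121 FPKM (fragments per kilobase of gene length, scaled to library size) in Ep1 and 66.4 to 78.4 FPKM in Ctrl, whereas 7 neuron markers summed to 1245 to 1366 FPKM in Ep1 and 1258 to 1383 FPKM in Ctrl. Neuron markers were thus far more abundant than those of the labelled cell type. In such bulk samples, fewer cells of a type and less RNA per cell cannot be told apart. Ctrl 3 stood apart from the other libraries: its correlation with each other Ctrl library across genes was 0.967 to 0.971, and the share of mitochondrially encoded genes was 5.08% there and 3.21% to 3.61% elsewhere.

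The stretches just upstream of the annotated starts of 4 genes are shown because these 4 genes changed between the groups, as described further on. The sequences are from RefSeq on build GRCm38.p6, whose table held 7 of the 10 genes, and capitals mark matches to GAANNTTC or TTCNNGAA, the smallest inverted repeats of a heat shock element. Each of these motifs is its own reverse complement, so both strands are covered, and neighbouring matches may overlap. The first sequence covers chr17:34959239-34959488 on the minus strand, the next chr17:34972157-34972406 on the minus strand, the next chr5:135887669-135887918 on the plus strand and the last, before the first of 2 listed starts, chr5:149636337-149636586 on the minus strand. Each runs 5′ to 3′ and ends at the base before the start.
Hspa1b: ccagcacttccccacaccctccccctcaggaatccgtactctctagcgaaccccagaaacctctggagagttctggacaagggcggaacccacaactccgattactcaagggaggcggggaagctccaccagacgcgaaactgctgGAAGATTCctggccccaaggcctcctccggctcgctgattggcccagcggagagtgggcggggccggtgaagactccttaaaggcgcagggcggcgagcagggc
Hspa1a: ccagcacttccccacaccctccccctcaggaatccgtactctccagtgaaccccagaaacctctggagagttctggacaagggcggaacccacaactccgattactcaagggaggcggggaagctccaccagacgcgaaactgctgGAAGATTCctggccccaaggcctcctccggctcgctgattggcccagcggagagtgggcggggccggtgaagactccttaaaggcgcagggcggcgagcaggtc
Hspb1: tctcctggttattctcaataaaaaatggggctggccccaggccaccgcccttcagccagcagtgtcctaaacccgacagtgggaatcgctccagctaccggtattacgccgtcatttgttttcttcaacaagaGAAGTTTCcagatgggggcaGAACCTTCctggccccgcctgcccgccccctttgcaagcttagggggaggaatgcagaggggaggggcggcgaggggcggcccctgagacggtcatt
Hsph1: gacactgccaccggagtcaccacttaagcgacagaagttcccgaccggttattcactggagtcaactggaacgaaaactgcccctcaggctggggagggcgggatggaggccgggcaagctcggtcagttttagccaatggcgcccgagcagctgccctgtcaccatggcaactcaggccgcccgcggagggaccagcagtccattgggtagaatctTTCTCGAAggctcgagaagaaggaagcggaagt

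Hspa1b and Hspa1a each held 1 match, GAAGATTC, 104 bases upstream of the start. Hspb1 held 2 matches, 117 and 97 bases upstream. Hsph1 held 1 match 33 bases upstream and 2 overlapping ones that begin at bases 37 and 42 after the start. In windows of 300 bases, 250 before and 50 after the start, the Hspa1b and Hspa1a sequences were the same at 296 positions and differed by T44C, C47T, G249T and T276C, with the Hspa1b base first and positions counted from 1 at the 5′ end of the window. Taking 1 window per gene, at its first listed start, 5 of 7 genes held at least 1 match and Hspa4l and Hspd1 held none. The near-identical windows of Hspa1b and Hspa1a are counted separately among the 5. No window was listed for Hspa8, Hsp90aa1 and Hsp90ab1, so the count does not cover these genes. Hspd1 held matches only at its second start, whose window shares 285 bases with that of Hspe1. Of all 32851 windows of that length in the table, several of which can belong to 1 gene, 15.1% held a match. GAANNTTC alone was in 7.86% and TTCNNGAA alone in 8.52% of those windows. A match is a description of the letters and not a shown binding site.

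Hspe1 is shown as a contrast, since it did not pass the test between the groups and its window held a run of overlapping matches. The stretch is chr1:55088053-55088082 on the plus strand.
Hspe1: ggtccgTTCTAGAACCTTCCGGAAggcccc
The 3 matches began 89, 84 and 79 bases upstream of the Hspe1 start. The run contains the 3-unit form, that is GAANNTTC followed by NNGAA or TTCNNGAA followed by NNTTC, which was in 0.603% of all windows. The same run lies upstream of the second listed start of Hspd1, which faces Hspe1 on the other strand, and Hsph1 held a 3-unit match after its start, so 3 members in all held the longer motif.

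Expression differed between Ep1 and Ctrl in 4 of the 10 genes, all of them higher in Ep1: the inducible Hsp70 genes Hspa1b and Hspa1a, the small heat shock protein gene Hspb1 and the Hsp110 gene Hsph1. No member was lower, with 0 of 10 lower at an unadjusted limma p under 0.05 and 0 with voom weights. The test was limma on log2(FPKM + 1) over the 14710 genes whose mean reached 1 FPKM in Ep1 or in Ctrl, with Benjamini-Hochberg adjustment at 0.05. It called 15.5% of all tested genes higher, 10.6% lower and 26.1% changed in either direction. With voom weights 1816 of the 14710 genes were called lower. Beside these shares, 0 lower among 10 members does not set the members apart. Of the 10 members 3, Hspa1b, Hspa1a and Hspb1, were called higher with a log2 change of at least 1. Of all tested genes 1.38% met both conditions. The groups did not overlap for 5 members, the same 4 and Hsp90ab1, all higher in Ep1; 17.7% of tested genes had all Ep1 values above all Ctrl values, and 31.8% did not overlap in either direction. The median log2 change was 0.17 over the 10 members and 0.01 over all tested genes, and 8 of the 10 estimates were positive, against 7 under quantile normalization and 10 without Ctrl 3. All 10 members passed the filter on low values, Hspa4l only through its Ep1 mean.

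**Figure D1:**
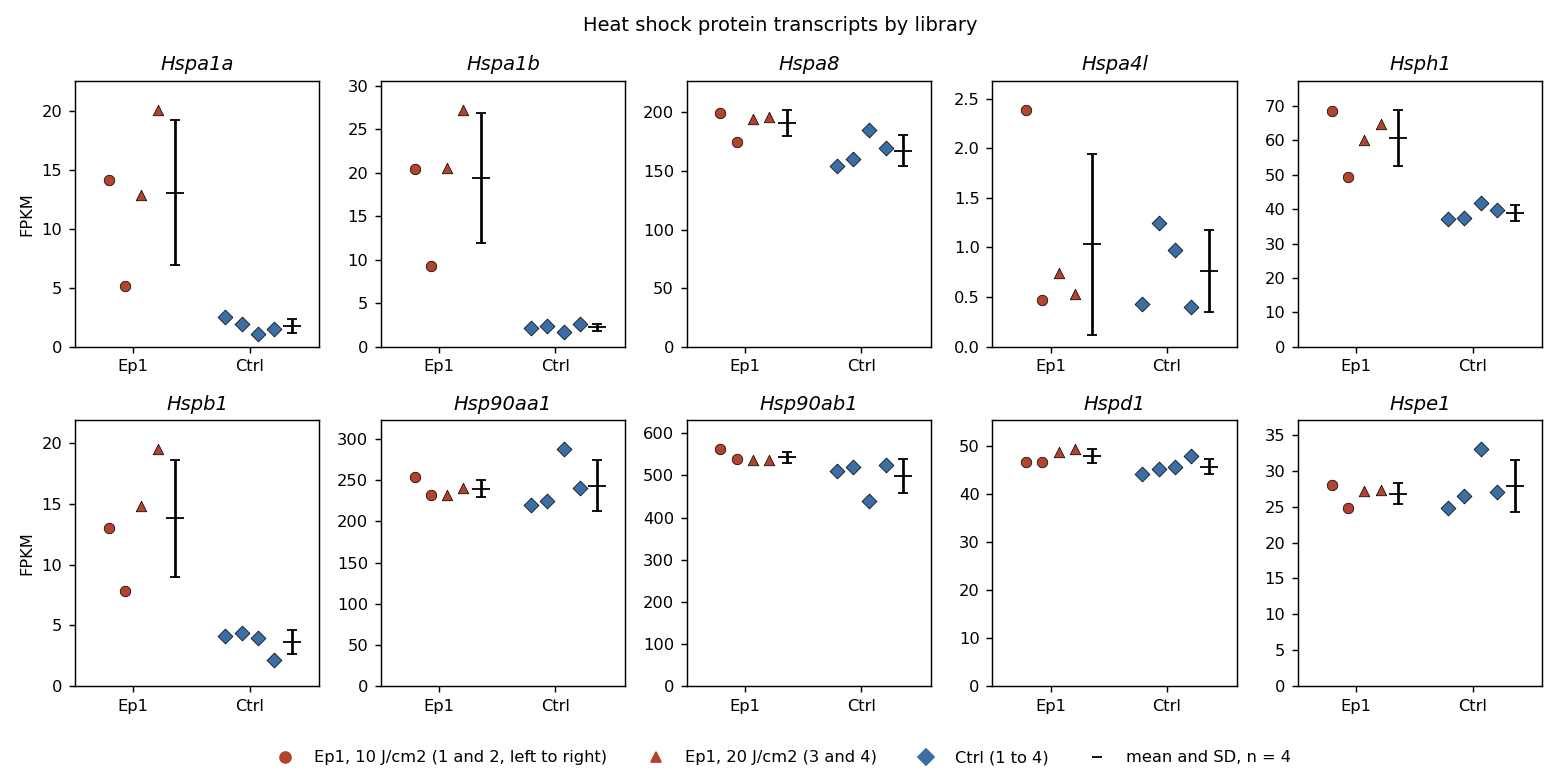
Level of each of the 10 heat shock protein genes in FPKM, one panel per gene with its own axis from 0, showing every Ep1 library (left) and every Ctrl library (right) as a point with the group mean and SD (n = 4 each). Hspa1a, Hspa1b, Hspb1 and Hsph1 separate the groups widely, Hsp90ab1 by a narrow gap, and the other 5 genes overlap.

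Hspa1b and Hspa1a encode the stress-inducible cytosolic Hsp70, an ATP-dependent chaperone. They lie 9951 bases apart on chromosome 17 of GRCm38, each with 1 exon on the minus strand, Hspa1b (ENSMUSG00000090877) at chr17:34956436-34959238 and Hspa1a (ENSMUSG00000091971) at chr17:34969190-34972156. Hspa1b had 20.5, 9.25, 20.6 and 27.3 FPKM in Ep1 1 to Ep1 4, against 2.20, 2.40, 1.71 and 2.60 FPKM in Ctrl 1 to Ctrl 4. Every Ep1 value lay above every Ctrl value, and the lowest Ep1 value was that of Ep1 2. The mean was 19.4 ± 7.48 FPKM in Ep1 and 2.23 ± 0.380 FPKM in Ctrl (SD, n = 4 each), 8.70 times as high. The log2 change was 2.58 ± 0.28 (SE, 95% interval 1.93 to 3.22, limma adjusted p = 0.000814), rank 7 of the 14710 tested genes counted from the highest log2 change down.

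Hspa1a had 14.1, 5.14, 12.9 and 20.2 FPKM in Ep1 1 to Ep1 4, against 2.55, 1.91, 1.11 and 1.50 FPKM in Ctrl 1 to Ctrl 4. The groups did not overlap, and again Ep1 2 was lowest and Ep1 4 highest among the Ep1 libraries. The mean was 13.1 ± 6.18 FPKM in Ep1 and 1.77 ± 0.615 FPKM in Ctrl (SD, n = 4 each), a ratio of 7.41. The log2 change was 2.24 ± 0.35 (SE, 95% interval 1.43 to 3.05, limma adjusted p = 0.00329). These values rest on 261 to 889 fragments of Hspa1a in Ep1 and 52 to 131 in Ctrl. The genes are near-identical copies, so how fragments were divided between them is uncertain. Summed and tested as 1 gene, they had a log2 change of 2.65 ± 0.32 (SE, limma adjusted p = 0.00121). The ratio of Hspa1b to Hspa1a in FPKM was 1.35 to 1.80 in Ep1 and 0.865 to 1.74 in Ctrl, so the ranges overlapped. A transcript on the opposite strand that overlaps Hspa1a, Gm20481, was listed at 0 in every library.

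Hspb1 encodes a small heat shock protein that holds unfolded proteins without using ATP and stabilises actin filaments. It lies at chr5:135887919-135889563 on the plus strand (ENSMUSG00000004951). Hspb1 had 13.0, 7.82, 14.8 and 19.5 FPKM in Ep1 1 to Ep1 4, against 4.14, 4.34, 3.93 and 2.19 FPKM in Ctrl 1 to Ctrl 4. The groups did not overlap, Ep1 2 was the lowest Ep1 library and Ctrl 4 the lowest of all. The mean was 13.8 ± 4.84 FPKM in Ep1 and 3.65 ± 0.990 FPKM in Ctrl (SD, n = 4 each), 3.78 times as high, with a log2 change of 1.63 ± 0.27 (SE, 95% interval 1.03 to 2.24, limma adjusted p = 0.00370). The counts behind it were 138 to 299 fragments in Ep1 and 38 to 82 in Ctrl.

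Hsph1 encodes Hsp110, which exchanges the nucleotide of Hsp70 and works with it to dissolve protein aggregates. It lies at chr5:149614287-149636376 on the minus strand (ENSMUSG00000029657). Hsph1 had 68.5, 49.4, 60.1 and 64.7 FPKM in Ep1 1 to Ep1 4, against 37.0, 37.3, 41.8 and 39.7 FPKM in Ctrl 1 to Ctrl 4. All Ep1 libraries were above all Ctrl libraries, with Ep1 2 nearest to them. The mean was 60.7 ± 8.26 FPKM in Ep1 and 39.0 ± 2.26 FPKM in Ctrl (SD, n = 4 each), 1.56 times as high, with a log2 change of 0.62 ± 0.10 (SE, 95% interval 0.40 to 0.84, limma adjusted p = 0.00260). It ranked 714 among tested genes counted from the highest log2 change down, compared with rank 16 for Hspa1a and 47 for Hspb1.

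The mean in Ep1 exceeded that in Ctrl by 21.7 FPKM for Hsph1, 17.2 FPKM for Hspa1b, 11.3 FPKM for Hspa1a and 10.1 FPKM for Hspb1. Among the members that did not pass, this difference was larger for Hsp90ab1 (44.7 FPKM) and Hspa8 (23.9 FPKM). It was 2.17 FPKM for Hspd1, 0.271 FPKM for Hspa4l, -3.56 FPKM for Hsp90aa1 and -1.02 FPKM for Hspe1. The summed level of the 10 members was 1089.8 to 1209.6 FPKM in Ep1 and 999.8 to 1056 FPKM in Ctrl. The higher sum in Ep1 thus does not come from the called genes alone.

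**Figure D2:**
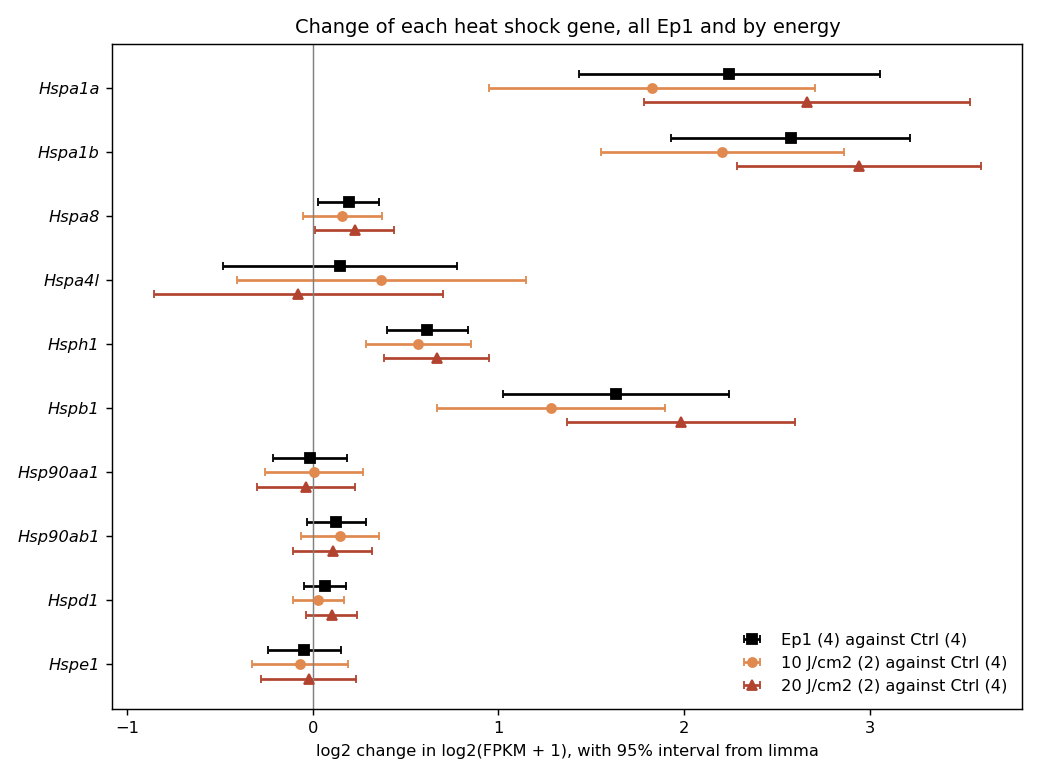
Log2 change of each of the 10 genes on the log2(FPKM + 1) scale with its 95% interval from limma, for all Ep1 libraries against Ctrl and for each energy against Ctrl. The intervals of Hspa1a, Hspa1b, Hspb1 and Hsph1 lie above 0 in all 3 comparisons, and those of Hsp90aa1, Hsp90ab1, Hspa4l, Hspd1 and Hspe1 for all Ep1 libraries include 0.

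Hspa8 encodes the constitutive Hsp70, Hsc70, which uncoats clathrin vesicles and serves in general folding. It lies at chr9:40800984-40810087 on the plus strand (ENSMUSG00000015656). Hspa8 had 199, 174, 195 and 196 FPKM in Ep1 1 to Ep1 4, against 154, 160.4, 185 and 169 FPKM in Ctrl 1 to Ctrl 4. The groups overlapped, since Ctrl 3 was above Ep1 2. The mean was 191 ± 11.3 FPKM in Ep1 and 167 ± 13.3 FPKM in Ctrl (SD, n = 4 each), and the log2 change of 0.19 ± 0.07 (SE, 95% interval 0.03 to 0.36) did not pass (limma adjusted p = 0.0797). Without Ctrl 3 the log2 change was 0.24 with a limma adjusted p of 0.0171, and without Ep1 2 it was 0.24 with a limma adjusted p of 0.0466.

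The inducible genes can be set against Hspa8 in each library. Hspa1a and Hspa1b together amounted to 17.4%, 8.25%, 17.2% and 24.2% of the Hspa8 level in Ep1 1 to Ep1 4, against 3.08%, 2.69%, 1.53% and 2.42% in Ctrl 1 to Ctrl 4. Thus Hspa8 exceeded the inducible pair in every library, and the groups did not overlap in this share.

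**Figure D3:**
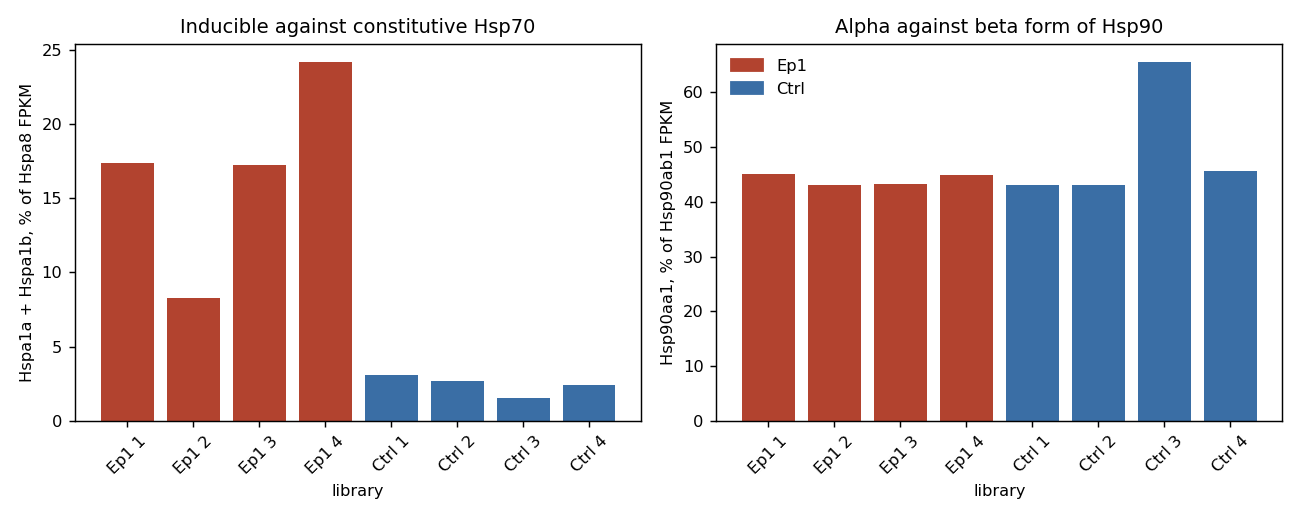
Left, the summed FPKM of Hspa1a and Hspa1b as a percentage of the Hspa8 FPKM in each of the 8 libraries; right, the Hsp90aa1 FPKM as a percentage of the Hsp90ab1 FPKM. The share on the left is 8.25% to 24.2% in Ep1 and 1.53% to 3.08% in Ctrl, and on the right only Ctrl 3, at 65.6%, departs from the other 7 libraries, at 43.1% to 45.7%.

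Hsp90ab1 and Hsp90aa1 encode the constitutive beta and the more inducible alpha form of cytosolic Hsp90, which matures kinases and steroid receptors. Hsp90ab1 lies at chr17:45567775-45573271 and Hsp90aa1 at chr12:110690605-110702728, both on the minus strand (ENSMUSG00000023944 and ENSMUSG00000021270). Hsp90ab1 had 563, 539, 537 and 536 FPKM in Ep1 1 to Ep1 4, against 510.2, 521, 439 and 525 FPKM in Ctrl 1 to Ctrl 4. The groups did not overlap, but the gap between Ep1 4 and Ctrl 4 was narrow and Ctrl 3 was far below the rest. The log2 change of 0.13 ± 0.07 (SE, 95% interval -0.03 to 0.29) did not pass (limma adjusted p = 0.211), with means of 544 ± 13.1 FPKM in Ep1 and 499 ± 40.2 FPKM in Ctrl (SD, n = 4 each).

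Hsp90aa1 had 254, 232, 232 and 240.3 FPKM in Ep1 1 to Ep1 4, against 220.2, 224, 288 and 240.2 FPKM in Ctrl 1 to Ctrl 4. The groups overlapped, and the highest value was that of Ctrl 3. The mean was 239.7 ± 10.3 FPKM in Ep1 and 243 ± 31.1 FPKM in Ctrl (SD, n = 4 each), with a log2 change of -0.01 ± 0.09 (SE, 95% interval -0.21 to 0.18, limma adjusted p = 0.920). Without Ctrl 3 the direction turned, to a log2 change of 0.07 that did not pass either (limma adjusted p = 0.314). The Hsp90aa1 level was 43.1% to 45.1% of the Hsp90ab1 level in Ep1 and 43.1% to 45.7% in Ctrl 1, Ctrl 2 and Ctrl 4, but 65.6% in Ctrl 3.

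Hspd1 and Hspe1 encode the mitochondrial chaperonin Hsp60 and its lid Hsp10. They stand head to head on chromosome 1, Hspd1 (ENSMUSG00000025980) at chr1:55077835-55088243 on the minus strand and Hspe1 (ENSMUSG00000073676) at chr1:55088132-55091307 on the plus strand, and overlap by 112 bases, where fragments could not be told apart without strand. Hspd1 had 46.7, 46.6, 48.8 and 49.4 FPKM in Ep1 1 to Ep1 4, against 44.2, 45.1, 45.6 and 47.8 FPKM in Ctrl 1 to Ctrl 4. The groups overlapped only through Ctrl 4, and the log2 change of 0.07 ± 0.05 (SE, 95% interval -0.05 to 0.18, limma adjusted p = 0.357) turned to -0.03 under quantile normalization.

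Hspe1 had 28.0, 24.8, 27.2 and 27.3 FPKM in Ep1 1 to Ep1 4, against 24.8, 26.5, 33.1 and 27.1 FPKM in Ctrl 1 to Ctrl 4. The groups overlapped, with Ctrl 3 the highest library. The log2 change was -0.05 ± 0.09 (SE, 95% interval -0.24 to 0.15, limma adjusted p = 0.725), and without Ctrl 3 it turned to 0.04 (limma adjusted p = 0.652). The table also held 12 rows of related genes or pseudogenes named after members, 5 of them at 0 in all libraries. Reads of the members could be divided with these.

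Hspa4l encodes another Hsp110 protein, known mainly from testis. It lies at chr3:40745382-40796103 on the plus strand (ENSMUSG00000025757). Hspa4l had 2.39, 0.467, 0.747 and 0.533 FPKM in Ep1 1 to Ep1 4, against 0.431, 1.24, 0.973 and 0.402 FPKM in Ctrl 1 to Ctrl 4. The groups overlapped and Ep1 1 alone was above 2 FPKM. The log2 change was 0.15 ± 0.28 (SE, 95% interval -0.49 to 0.78, limma adjusted p = 0.724), an interval that spans changes in either direction. Without Ep1 1 the gene fell below the filter and was not tested.

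Ordered by mean FPKM, which is scaled by length, the Ep1 libraries gave Hsp90ab1, Hsp90aa1, Hspa8, Hsph1, Hspd1, Hspe1, Hspa1b, Hspb1, Hspa1a and Hspa4l. The Ctrl libraries gave Hsp90ab1, Hsp90aa1, Hspa8, Hspd1, Hsph1, Hspe1, Hspb1, Hspa1b, Hspa1a and Hspa4l. Hsph1 thus stood above Hspd1 in Ep1 and below it in Ctrl. Among neighbours in the order, the ranges over libraries overlapped in Ep1 for Hspe1 and Hspa1b, for Hspa1b and Hspb1, and for Hspb1 and Hspa1a. In Ctrl they overlapped for Hspb1 and Hspa1b, for Hspa1b and Hspa1a, and for Hspa1a and Hspa4l.

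**Figure D4:**
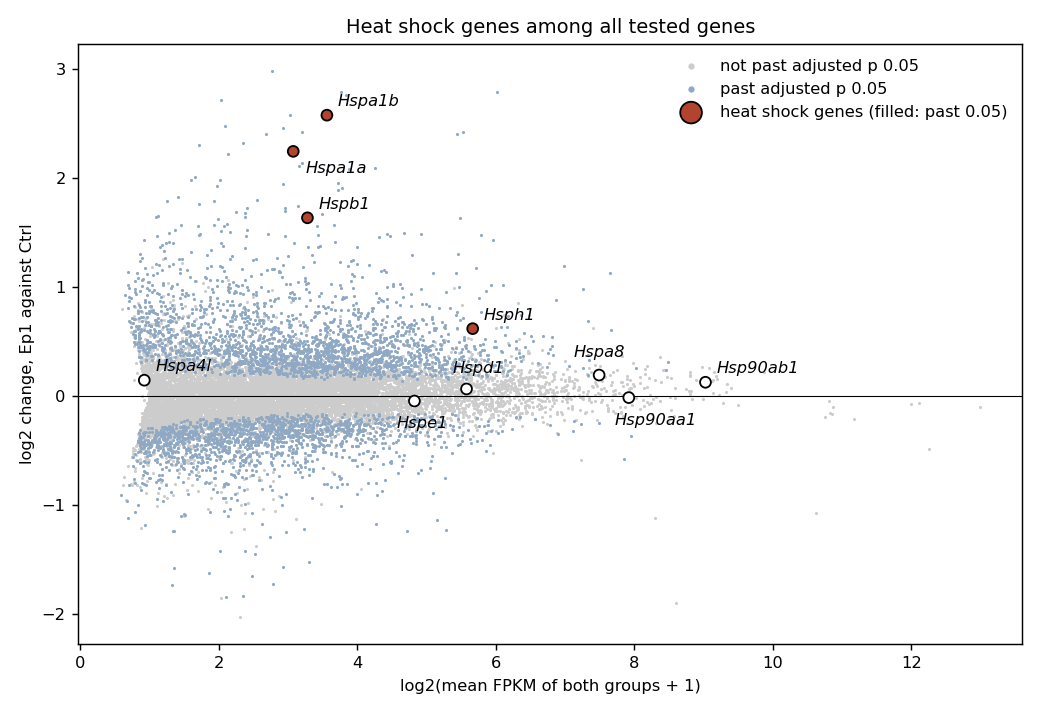
Log2 change in Ep1 against Ctrl (vertical axis) over the log2 of the mean FPKM of both groups plus 1 (horizontal axis) for all 14710 tested genes, with the 10 heat shock genes marked by name. Hspa1b (2.58), Hspa1a (2.24) and Hspb1 (1.63) lie far above the bulk of genes at modest levels, while the abundant Hsp90 genes and Hspa8 lie near 0.

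The spread of the 4 changed genes within the Ep1 group was smaller without Ep1 2, the lowest Ep1 library for each of them. The coefficient of variation was 47.2% in Ep1 and 34.8% in Ctrl for Hspa1a, 38.6% in Ep1 and 17.0% in Ctrl for Hspa1b, 35.1% in Ep1 and 27.1% in Ctrl for Hspb1, and 13.6% in Ep1 and 5.79% in Ctrl for Hsph1. Without Ep1 2, an alternative chosen after seeing the data, the Ep1 value was 24.6% for Hspa1a, 17.2% for Hspa1b, 21.4% for Hspb1 and 6.50% for Hsph1. Leaving out the lowest library tends to lower any spread, and Ctrl was not treated in the same way. No difference in spread between the groups is therefore drawn from these values. Ep1 2 had the lowest Ep1 value of 8 of the 10 members, all but the Hsp90 genes. Ep1 1 and Ep1 2 share the energy of 10 J/cm2, yet Ep1 1 was 2.75 times as high as Ep1 2 for Hspa1a, 2.21 times for Hspa1b, 1.66 times for Hspb1 and 1.39 times for Hsph1.

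By energy, the same 4 genes passed against Ctrl at 10 J/cm2 and at 20 J/cm2, in 1 limma fit with 3 groups; both comparisons use the same Ctrl libraries. At 10 J/cm2 (n = 2), where 7.29% of tested genes were called higher and 3.26% lower (10.5% in all), the log2 change was 2.21 ± 0.28 for Hspa1b and 1.83 ± 0.37 for Hspa1a (SE, limma adjusted p = 0.00626 and 0.0253). It was 1.28 ± 0.26 for Hspb1 and 0.57 ± 0.12 for Hsph1 (SE, limma adjusted p = 0.0249 and 0.0262). The 10 J/cm2 calls rest on few libraries: without Ep1 1 only Hspa1b passed (limma adjusted p = 0.0191), without Ctrl 1, Ctrl 2 or Ctrl 4 in turn 2 members passed, and without Ep1 3 or Ep1 4 in turn 3 members. Hspa1b kept its call in every alternative run at this energy, while Hsph1 lost it in 6, Hspa1a in 3 and Hspb1 in 2.

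At 20 J/cm2 (n = 2), where 13.9% of tested genes were called higher and 9.66% lower (23.5% in all), the log2 change was 2.94 ± 0.28 for Hspa1b and 2.66 ± 0.37 for Hspa1a (SE, limma adjusted p = 0.00117 and 0.00411). It was 1.98 ± 0.26 for Hspb1 and 0.67 ± 0.12 for Hsph1 (SE, limma adjusted p = 0.00339 and 0.00849). Hsph1 no longer passed without Ep1 3 (limma adjusted p = 0.0503) or without Ep1 4 (0.0896).

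The difference between the energies was tested directly. The mean level of Hspa1b was 23.9 FPKM at 20 J/cm2 and 14.8 FPKM at 10 J/cm2, and that of Hspa1a 16.6 FPKM at 20 J/cm2 and 9.64 FPKM at 10 J/cm2 (n = 2 each). That of Hspb1 was 17.2 FPKM at 20 J/cm2 and 10.4 FPKM at 10 J/cm2, and that of Hsph1 62.4 FPKM at 20 J/cm2 and 59.0 FPKM at 10 J/cm2. None of the 10 members passed in limma, and 0 members had an unadjusted p under 0.05, as 1019 of all tested genes did. The log2 difference between 20 J/cm2 and 10 J/cm2 was 0.74 for Hspa1b (95% interval -0.02 to 1.49, limma adjusted p = 0.727) and 0.83 for Hspa1a (95% interval -0.18 to 1.85, limma adjusted p = 0.803). It was 0.70 for Hspb1 (95% interval -0.01 to 1.41, limma adjusted p = 0.719) and 0.10 for Hsph1 (95% interval -0.23 to 0.43, limma adjusted p = 0.968). Leaving out 1 library moved the difference over 0.20 to 1.27 for Hspa1b, 0.18 to 1.48 for Hspa1a, 0.37 to 1.03 for Hspb1 and -0.13 to 0.33 for Hsph1, in each case lowest without Ep1 2 and highest without Ep1 1, and the Hsph1 direction turned without Ep1 2. With 2 libraries per energy, intervals that reach past 1 on the log2 scale do not show that the energies act alike. Of all tested genes 0.0068% passed, which is 1 gene, AC149090.1, named after its values were seen.

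Among 74 further genes of the chaperone network, 67 could be tested, of which 14 were higher and 2 lower in Ep1. Their median log2 change was 0.11, against 0.01 over all tested genes, and 15.5% of all tested genes were higher and 10.6% lower. The lists were gathered by function with earlier results of these data known, so these counts and medians are descriptions. The genes named from each list are those with the smallest p.

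Among the nucleotide exchange factors and other partners of Hsp70, 3 of 9 tested genes were higher and 0 lower. Bag3, a nucleotide exchange factor that leads Hsp70 clients to autophagy, had 7.28, 5.45, 5.56 and 7.46 FPKM in Ep1 1 to Ep1 4, against 3.49, 2.90, 2.34 and 2.73 FPKM in Ctrl 1 to Ctrl 4. The groups did not overlap, and its log2 change was 0.94 (limma adjusted p = 0.00111). Its relative Bag5 rose to 27.2 ± 2.05 FPKM in Ep1, against 18.1 ± 2.99 FPKM in Ctrl (log2 change 0.58, limma adjusted p = 0.00709). The ubiquitin ligase Stub1 was at 23.8 ± 1.23 FPKM in Ep1 and 20.9 ± 0.839 FPKM in Ctrl (limma adjusted p = 0.0425), a call lost in 13 of 18 alternatives.

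Of the Hsp40 proteins, which hand clients to Hsp70, 2 of 9 were higher. Dnajb1, the Hsp40 partner of inducible Hsp70, had 19.0, 15.7, 18.1 and 23.4 FPKM in Ep1 1 to Ep1 4, against 13.2, 13.4, 11.4 and 14.7 FPKM in Ctrl 1 to Ctrl 4. The groups did not overlap (log2 change 0.49, limma adjusted p = 0.0147). Dnaja1 was at 31.6 ± 1.64 FPKM in Ep1 and 26.9 ± 2.34 FPKM in Ctrl (limma adjusted p = 0.0439), a call lost in 11 of 18 alternatives, and Dnaja4 did not pass (limma adjusted p = 0.154).

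Other Hsp70 and Hsp110 genes were higher in 4 and lower in 1 of 10. The endoplasmic reticulum chaperone Hspa5 (BiP) rose to 61.7 ± 5.53 FPKM in Ep1, against 46.2 ± 2.83 FPKM in Ctrl (log2 change 0.41, limma adjusted p = 0.00508). Hyou1, the Hsp110 of the same compartment, rose to 19.4 ± 1.57 FPKM in Ep1, against 14.8 ± 1.08 FPKM in Ctrl (log2 change 0.37, limma adjusted p = 0.00687). Hspa14, an Hsp70 of the ribosome, rose to 8.12 ± 0.483 FPKM in Ep1, against 6.44 ± 0.357 FPKM in Ctrl (log2 change 0.29, limma adjusted p = 0.00909). Named after their values were seen, mitochondrial Hspa9 was higher (limma adjusted p = 0.0236) and Hspa12a lower (limma adjusted p = 0.0488), calls lost in 7 and 10 of 18 alternatives. Neither of the other Hsp90 genes passed: Hsp90b1 of the endoplasmic reticulum had a limma adjusted p of 0.349 and mitochondrial Trap1 one of 0.176. Trap1 was called lower under quantile normalization (log2 change -0.18, limma adjusted p = 0.0337), and Hsp90b1 higher without Ctrl 3 and Ep1 2 together (log2 change 0.15, limma adjusted p = 0.0481).

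Hsp90 co-chaperones were higher in 2 of 13. Stip1, which links Hsp70 to Hsp90, rose to 73.4 ± 2.34 FPKM in Ep1, against 59.1 ± 5.54 FPKM in Ctrl (log2 change 0.31, limma adjusted p = 0.0140). Unc45a, a myosin chaperone that binds Hsp90, rose to 7.48 ± 0.801 FPKM in Ep1, against 5.53 ± 0.418 FPKM in Ctrl (log2 change 0.37, limma adjusted p = 0.0102). The immunophilin Fkbp4 did not pass (limma adjusted p = 0.0898).

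None of the 8 CCT chaperonin subunits, which fold actin and tubulin, passed over all 8 libraries in limma or with voom weights. An unadjusted limma p under 0.05 was found for 3 of them. The share of all tested genes at that unadjusted p was not computed, and 26.1% passed even after adjustment. The count of 3 is therefore not read as a result about the subunits. Nearest to passing were Cct3 with 15.0 FPKM in Ep1 and 13.6 FPKM in Ctrl (limma adjusted p = 0.0562), Cct5 (limma adjusted p = 0.0690) and Cct7 (limma adjusted p = 0.0894). Cct3 passed without Ctrl 3 (log2 change 0.14, limma adjusted p = 0.0406). Of 8 mitochondrial partners and proteases 3 were higher: the exchange factor Grpel1 (log2 change 0.28, limma adjusted p = 0.0281), Clpx (0.20, 0.0233) and the protease Lonp1 (0.19, 0.0341). Their calls were lost in 6, 9 and 9 of 18 alternatives. Of 8 other small heat shock protein genes 4 could be tested. Of these Hspb3, known from muscle, fell to 1.61 ± 0.443 FPKM in Ep1, against 3.18 ± 0.760 FPKM in Ctrl (log2 change -0.67, limma adjusted p = 0.0153), while Hspb6 and Hspb8 did not pass (limma adjusted p = 0.336 and 0.337).

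**Figure D5:**
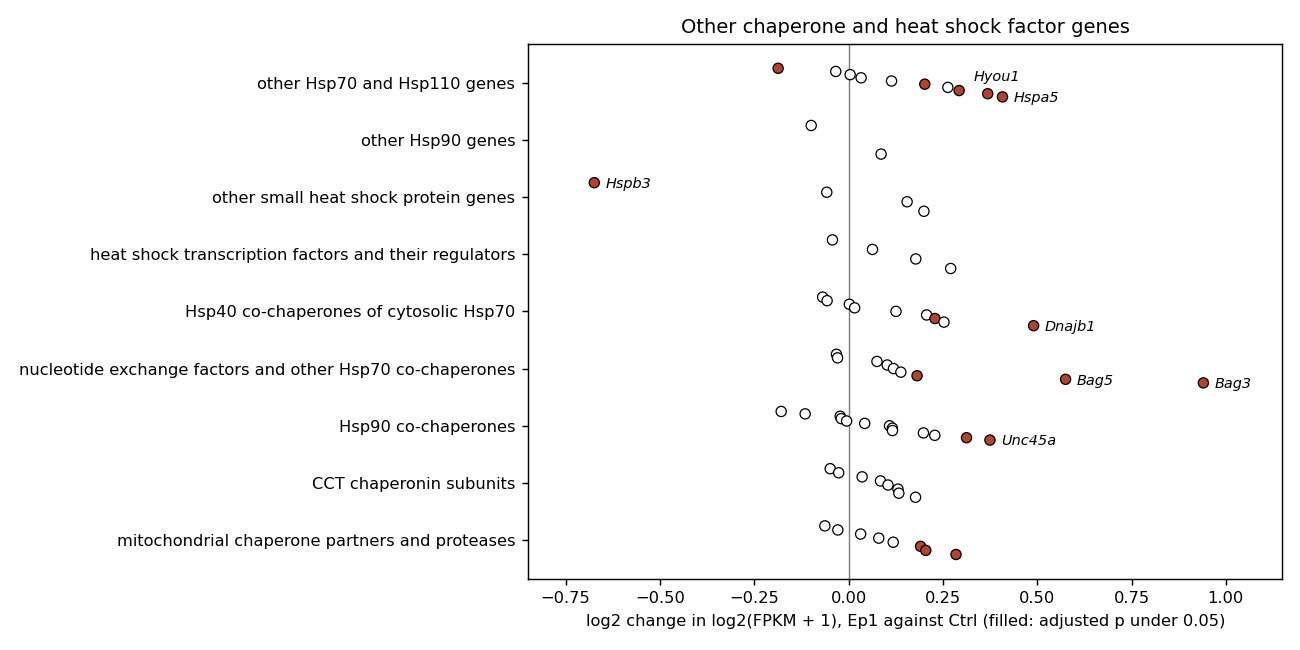
Log2 change in Ep1 against Ctrl on the log2(FPKM + 1) scale for the 67 tested genes of 9 lists of chaperones, co-chaperones and heat shock factors, one row per list and one point per gene, filled where the limma adjusted p was under 0.05. Bag3 (0.94), Bag5 (0.58) and Dnajb1 (0.49) lie farthest to the right and Hspb3 (-0.67) farthest to the left.

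The transcripts of the heat shock transcription factors were not called changed over all Ep1 libraries in limma or with voom weights. Of the 4 tested genes of this list 1, Hsf1, had an unadjusted limma p under 0.05. The share of all tested genes at that unadjusted p was not computed, so this count is not read as a result about the list. Hsf1, the main activator of the heat shock response, had 6.58, 6.19, 7.91 and 7.49 FPKM in Ep1 1 to Ep1 4, against 6.27, 6.02, 5.96 and 6.09 FPKM in Ctrl 1 to Ctrl 4. The highest values were those of the 20 J/cm2 libraries, and Ep1 2 lay within the Ctrl range (log2 change 0.18, limma adjusted p = 0.106). Without Ep1 2 it passed (log2 change 0.23, limma adjusted p = 0.0384). Hsf4, a factor known from the eye lens, had 10.6, 10.5, 16.2 and 14.3 FPKM in Ep1 1 to Ep1 4, against 10.8, 10.5, 9.99 and 10.2 FPKM in Ctrl 1 to Ctrl 4. Here too the 20 J/cm2 libraries stood above the other 6 (log2 change over all Ep1 libraries 0.27, limma adjusted p = 0.145).

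Tested by energy, a choice made after these values were seen, Hsf4 had a log2 change of 0.52 at 20 J/cm2 against Ctrl (limma adjusted p = 0.00280) and 0.02 at 10 J/cm2 (limma adjusted p = 0.854). Hsf1 had 0.30 at 20 J/cm2 (limma adjusted p = 0.0137) and 0.06 at 10 J/cm2 (limma adjusted p = 0.575). The difference between the energies did not pass for either gene, with limma adjusted p = 0.321 for Hsf4 and 0.646 for Hsf1. The Hsf1 call at 20 J/cm2 was lost without Ep1 3 (limma adjusted p = 0.107) or Ep1 4 (0.0766). Hsf2 and Hsbp1, a binding protein that represses HSF1, did not pass (limma adjusted p = 0.647 and 0.549), and Hsf3, Hsf5 and Hsf2bp were below the filter and not tested.

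The genes most like Hspa1b over the 8 libraries were Cd14, Hba-a1, Socs3, Adm and Nptx2. Likeness was the root mean square difference from Hspa1b, each gene taken as log2(FPKM + 1) minus its own Ctrl mean. The difference was 0.206 for Cd14, a receptor of innate immunity, 0.209 for Hba-a1, an alpha-globin gene with a near-identical copy, and 0.240 for Socs3, an inhibitor of cytokine signalling. It was 0.256 for Adm, which encodes the vasodilator adrenomedullin, and 0.264 for the neuronal pentraxin Nptx2. Of the members, Hspa1a came nearest with 0.306 (rank 11), followed by Hspb1 with 0.730 (rank 39) and Hsph1 with 1.42 (rank 637). Genes with a change of similar size between Ctrl and Ep1 come out as alike by this measure. The list is thus a description, and shared regulation was not tested. Socs3 and Adm, with Ctrl means of 0.996 FPKM and 0.631 FPKM, passed the filter on low values only through Ep1.

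Markers of some other cell types differed between the groups as well. Of 5 red blood cell markers 4 were higher in Ep1, and their summed level was 189.6, 88.4, 137 and 294 FPKM in Ep1 1 to Ep1 4, against 26.1 to 35.9 FPKM in Ctrl. Ep1 2 was lowest and Ep1 4 highest among the Ep1 libraries, as for Hspa1a, Hspa1b and Hspb1. Of 7 endothelial cell markers 4 were higher and 2 lower, and the sums were 98.4, 83.6, 115 and 121 FPKM in Ep1 1 to Ep1 4, against 66.4 to 78.4 FPKM in Ctrl.

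Of 6 microglia markers 1 was higher and 4 lower, with sums of 62.6 to 72.3 FPKM in Ep1 and 76.8 to 82.6 FPKM in Ctrl. Of 6 striatal neuron markers 5 were lower, with sums of 66.8 to 125 FPKM in Ep1 and 115 to 142 FPKM in Ctrl. Astrocyte markers were higher in 2 of 6, Gfap and Aldh1l1 (sums of 345 to 373 FPKM in Ep1, 329.7 to 343 FPKM in Ctrl). Gfap had a mean of 70.9 FPKM in Ep1 and 31.7 FPKM in Ctrl. Aqp4, Gja1, Slc1a3 and Slc1a2 had lower means in Ep1 and were not called. Of 6 oligodendrocyte markers 0 were higher and 0 lower (840.4 to 1083 FPKM in Ep1, 803 to 1095 FPKM in Ctrl). Of 4 tested pericyte markers 1 was lower (46.9 to 50.3 FPKM in Ep1, 51.7 to 59.1 FPKM in Ctrl, over 5 genes). Of 7 neuron markers 1 was higher and 1 lower. No marker in any of these lists was at 0 in all libraries. The part of these markers in the heat shock gene results was not tested.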

How the data were processed

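Total RNA came from mouse brain lysed in Trizol, per the labels. The authors deposited 1 table of FPKM values per gene and library, and the table also gives gene lengths as deposited. Bowtie 0.12.2 and the build mm8 appear, with no role given, in the submitters' processing notes. The coordinates instead match GRCm38: start and end equalled those in GENCODE M21 for 99.4% of the 55141 shared identifiers. How fragments were counted, strandedness and filtering are not given in the sources used here. No FPKM column was left unused (0).

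Matching the columns to the libraries by letter and number is an inference. The product of FPKM and length came in whole steps of 1 size per library, within 0.01, which gave 15038147 to 17772972 fragments, and intervals from these would cover counting error only. The scaling total implied by FPKM was 98.39% to 103.08% of that sum.

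The tests were run in limma 3.58.1 under R 4.3.3, trended and robust, on log2(FPKM + 1) of genes whose mean reached 1 FPKM in Ep1 or in Ctrl, with Benjamini-Hochberg adjustment at 0.05 over 14710 genes. Ep1 was compared with Ctrl, and 1 fit with 3 groups compared the energies. Fold changes on this scale understate those of low genes. Tables and plots were made in Python 3.11.15 with numpy 2.4.6, pandas 2.3.3 and matplotlib 3.10.9. The scripts were tested on simulated data. Alternatives changed the pseudocount, filter, scaling, variance model, weights and libraries. The named genes were all 10 members, the heat shock factor list and the up to 3 genes of each other list with the smallest p, plus 5 genes like Hspa1b. Members and lists were chosen with earlier results of these data known.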

Additional observations from a re-analysis of the deposited data

Results flagged for a closer look

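In 40 genes, each in both groups of 4 libraries, the gap between the highest or lowest library and its nearest neighbour was compared with the range of the group. It exceeded Dixon's 95% critical value in 6 of 80 groups, and chance gives about 1 in 20, or 4 of 80. Members among them were 2, both through Ep1 1: Hspa4l, at 2.39 FPKM, and Hsp90ab1, at 563 FPKM, each the highest Ep1 value. The others were Hspa14 at 7.40 FPKM in Ep1 2 and Fkbp4 at 47.2 FPKM in Ep1 3. Cct3 stood out in both groups, at 14.9 FPKM in Ep1 2 and at 13.1 FPKM in Ctrl 1, each the lowest of its group; the Ep1 range of this gene was narrow. The member genes that passed the test, Hspa1a, Hspa1b, Hspb1 and Hsph1, were not among the 6.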

How the results depend on the processing

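Hspa1a, Hspa1b, Hspb1 and Hsph1 kept their calls in Ep1 against Ctrl in all 18 alternatives. Their limma adjusted p ranged over 0.000183 to 0.0174 for Hspa1a, 1.67e-05 to 0.00535 for Hspa1b, 0.000951 to 0.0247 for Hspb1 and 0.000189 to 0.0109 for Hsph1. The number of members called was 4 or 5 in these alternatives, Hspa8 being the fifth without Ctrl 3, without Ep1 2 and without both (log2 change 0.29, limma adjusted p = 0.00344), the last an alternative chosen after seeing the data. With 1 library left out, non-overlapping members numbered 5 to 6. Leaving out a library can only keep or add such genes, and the share over all tested genes was not computed for these runs. The count is therefore not read as a result about the members.

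Genes called in Ep1 against Ctrl numbered 3841, and 2427 to 4141 with 1 library left out, the lowest without Ep1 4, and 4896 without Ctrl 3 and Ep1 2. At 10 J/cm2 the 1551 genes became 173 to 2081, the lowest without Ep1 1, and 4 members became 1 to 4. Without Ctrl 1, Ctrl 2 or Ctrl 4 the genes were 943, 826 and 856. At 20 J/cm2 the 3462 genes became 660 to 4335, with 1161 without Ep1 3 and 660 without Ep1 4, and members 3 to 5. Between energies 1 gene became 0 to 1 (0 without Ep1 2, Ep1 3 or Ep1 4). An energy left with 1 library is assumed to vary like the other groups. The causes were not tested.

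The main split of calls was 2275 higher and 1566 lower. Quantile normalization gave 1946 higher and 1996 lower, and leaving out mitochondrial genes and CT010467.1 gave 1966 higher and 2045 lower.

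With the replicate number as a block, 2726 genes and 4 members were called. Same-numbered libraries of both groups did not deviate together (correlations -0.05 to 0.06) and 3 of 8 libraries correlated best with their own number, so the numbers are not taken to pair the libraries.

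The low counts of Hspa1a and Hspb1 in Ctrl, the 2 libraries per energy and the 4 per group limit the precision. Every value is a relative share of a library, and no labelled animal or batch allowed a check within batches.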
